A study of Homo sapiens with 20 samples.

Results

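ULBP1, ULBP2, ULBP3, MICA, MICB and PVR encode surface ligands of NKG2D and DNAM-1, 2 activating receptors of natural killer (NK) cells and of some T cells. They were taken as a list of 6 genes among the 19775 genes that have a probe set on the arrays, with all 13 probe sets that the platform annotation names for 1 of them alone, among 41097 probe sets with 1 gene symbol. The genes were listed with earlier results of these data known, so their values are a description, and a call among them is no independent support. The 6 were selected on ligand family after their log2 differences between the peptides on these arrays had been seen. Of the 6 genes, 4 (ULBP2, MICA, MICB and PVR) passed the filter on low values and were tested. ULBP1 and ULBP3 stayed below it on all 20 arrays.

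Transcripts were measured on Affymetrix U133 Plus 2.0 arrays from 5 established human lines of T-ALL (acute lymphoblastic leukaemia of T cells), named T-ALL1, KOPT-K, CEM, DND41 and HPB-ALL. The cells of each line received either the NEMO binding domain (NBD) peptide or a control peptide for 16 h, and each of the 10 groups has 2 arrays. The NBD peptide blocks canonical NF-kB signalling by parting IKKγ (NEMO) from the kinases IKKα and IKKβ. The labels give the dose as 100 with conflicting units, µM in some fields and mM in others, so no statement rests on it. All groups are cultured cells with no engineered change in the labels. Whether the paired arrays of a group are separate cultures is not labelled, so each p-value reflects array-to-array spread that may be technical. In these bulk samples, fewer cells that carry a transcript and less of it per cell cannot be told apart.

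NKG2D reads MICA, MICB and the ULBP proteins, relatives of MHC class I molecules that cells display under stress, DNA damage or transformation. MICA and MICB span the membrane, whereas ULBP1, ULBP2 and ULBP3 are usually held by a lipid anchor, and metalloproteases such as ADAM10 and ADAM17 can release several of them from the surface. PVR (CD155) is a nectin-like adhesion molecule that binds activating DNAM-1 (CD226) and also the receptors TIGIT and CD96. Leukaemia cells that carry these ligands can become targets of NK cells, while shed ligand can blunt NKG2D.

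The start regions of 4 NKG2D ligand genes were read from the RefSeq promoter table (GRCh38.p14), each from 250 bases before the start base the table uses through the first 50 bases from it. For ULBP2, ULBP1, ULBP3 and PVR that base is the first of the RefSeq gene record, whereas for MICA and MICB it lies 2884 and 3227 bases inside the record. All 6 member genes had an entry. ULBP2 and ULBP1 are shown because they are neighbours, 14.7 kb apart on chromosome 6, and hold the same number of one motif, although only ULBP2 was above the filter. MICA and MICB are shown as the closest pair in sequence. In the first 2 sequences the capitals mark the core of the cyclic AMP response element (CRE), the letters TGACG read on either strand. In the last 2 they mark an inverted pair of heat shock units, GAANNTTC, which reads alike on both strands.
ULBP2: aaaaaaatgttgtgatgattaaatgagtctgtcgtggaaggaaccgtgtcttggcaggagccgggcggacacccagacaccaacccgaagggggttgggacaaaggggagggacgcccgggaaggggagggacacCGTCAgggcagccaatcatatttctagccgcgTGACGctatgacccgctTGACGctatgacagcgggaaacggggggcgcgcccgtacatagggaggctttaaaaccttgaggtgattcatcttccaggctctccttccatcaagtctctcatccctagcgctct
ULBP1: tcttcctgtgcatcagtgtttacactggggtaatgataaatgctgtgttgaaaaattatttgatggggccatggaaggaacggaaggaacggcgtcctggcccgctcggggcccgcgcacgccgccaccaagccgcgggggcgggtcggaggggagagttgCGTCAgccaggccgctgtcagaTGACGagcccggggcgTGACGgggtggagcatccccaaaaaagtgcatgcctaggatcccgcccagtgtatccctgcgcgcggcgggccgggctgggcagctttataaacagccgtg
MICA: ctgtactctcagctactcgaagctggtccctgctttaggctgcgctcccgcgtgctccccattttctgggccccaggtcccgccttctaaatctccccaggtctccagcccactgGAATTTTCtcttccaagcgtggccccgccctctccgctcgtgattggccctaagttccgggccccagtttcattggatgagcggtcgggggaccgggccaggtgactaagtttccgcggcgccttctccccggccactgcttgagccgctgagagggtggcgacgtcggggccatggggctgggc
MICB: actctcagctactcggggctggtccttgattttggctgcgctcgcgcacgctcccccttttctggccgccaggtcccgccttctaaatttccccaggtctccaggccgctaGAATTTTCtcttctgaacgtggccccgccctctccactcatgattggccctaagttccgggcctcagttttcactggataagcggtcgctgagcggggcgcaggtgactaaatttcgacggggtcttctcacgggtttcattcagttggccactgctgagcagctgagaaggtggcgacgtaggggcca
The ULBP2 window is chr6:149941764-149942063 (plus strand) and the ULBP1 window chr6:149963693-149963992 (plus strand). The MICA window is chr6:31403345-31403644 (plus strand) and the MICB window chr6:31497895-31498194 (plus strand), and their genes lie 79.6 kb apart in the MHC region.

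ULBP2 and ULBP1 each had 3 CRE cores, a motif that 24.6% of the 35116 RefSeq promoters of this length held at least once. With the table's start base as base 1, those of ULBP2 began at -115 on the minus strand and at -83 and -66 on the plus strand. Those of ULBP1 began at -89 on the minus strand and at -67 and -51 on the plus strand. The heat shock pair stood at -135 in MICA and at -139 in MICB, and 6.77% of all promoters held it. Neither the full CRE (TGACGTCA, 1.85% of promoters), nor the AP-1 site (TGACTCA, 4.95%), nor the E-box read by MYC (CACGTG, 7.26%) matched in any of the 6 windows. All motifs were searched on both strands. Every full CRE also holds 2 cores, 1 on each strand. The NF-kB consensus matched once in ULBP1 and once in ULBP3 and not in the windows of ULBP2, MICA, MICB or PVR, against 11.3% of all promoters. The GC box (GGGCGG, 45.0% of promoters) matched 6 times in ULBP3, 2 times in ULBP1 and once each in ULBP2, MICA and MICB. The CCAAT box (CCAAT, 34.6%) matched 2 times in MICA and once each in ULBP2 and MICB. PVR had none of these motifs in its window. The aligned promoters of MICA and MICB were identical at 78.2% of positions, and those of ULBP1 and ULBP2 at 46.7%. A match describes letters only, and no match says nothing of a factor's action.

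**Figure D1:**
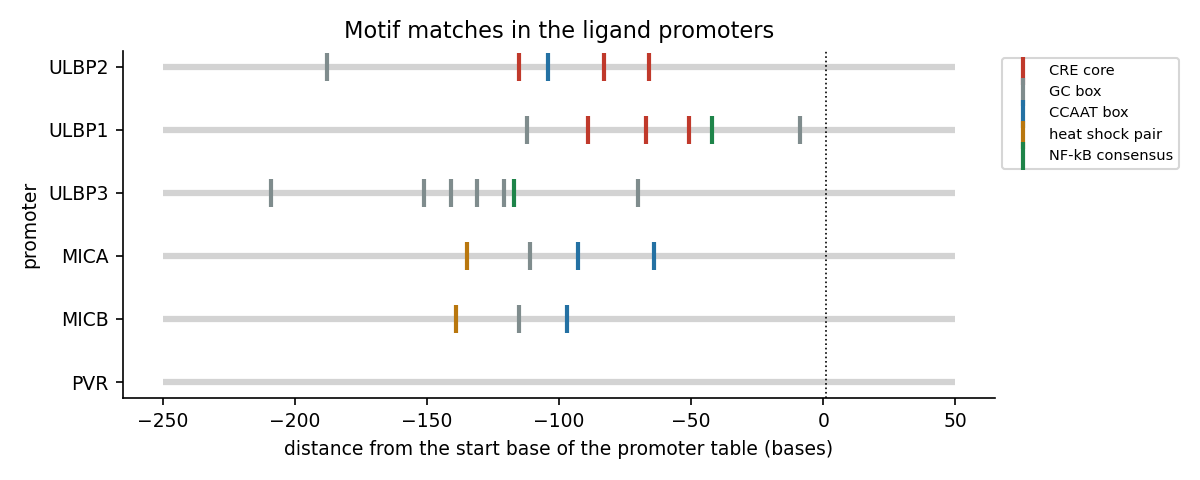
Motif matches in the promoters of the 6 ligand genes. The horizontal axis is the distance of a match's first base from the start base of the promoter table, in bases, and each row is 1 promoter; ULBP2 and ULBP1 each carry 3 CRE cores, and MICA and MICB each carry 1 heat shock pair at nearly the same distance.

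Pearson correlations over genes were 0.992 to 0.998 within a group and 0.860 to 0.923 between lines. Mean intensities of 386.9 to 396.1 in T-ALL1 and KOPT-K and of 341.0 to 347.7 in CEM, DND41 and HPB-ALL, with different numbers of decimals, show 2 kinds of column. The 2 sets look as if they were normalized apart, so levels are ordered only within a set, whereas each NBD effect lies within 1 set. In T-ALL1, the actin 3′ probe set exceeded the 5′ one by a log2 difference of 1.07 and 0.99 on the NBD arrays and 3.16 and 2.05 on the control arrays, against 0.73 to 1.81 over both peptides in the other lines. Beyond a fit with this difference as a covariate, its part in the T-ALL1 values was not tested. At least 11 of 13 T lineage markers reached the filter in every line, CD3D and LCK among them. CD1B and CD1E were below it in T-ALL1 and CD2 in DND41. Some markers of other cell types also reached it. Of 5 B cell markers, 2 or 3 did in each line under either peptide, with CD79A and CD79B above it in all 5 lines (CD79A at a mean of 10.8 in DND41) and MS4A1 below it in all. Of 5 myeloid markers, 1 or 2 did, with ITGAM above it and CD14, LYZ and MPO below it in all 5 lines. Of 6 NK cell markers, 2 to 4 did, with NCAM1 above it in all 5 lines, NKG7 in 4 (at 9.05 in KOPT-K) and KLRD1 in none. Of these lists only NKG7 was called on average, lower by 0.36 (limma adjusted p = 0.00318, and 0.0581 without the DND41 line), and in single lines only CD79A and NKG7 in DND41, at -1.28 and -0.76, calls that ended without any 1 of 2 and of 3 DND41 arrays. The part of these genes in the ligand values was not tested.

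ULBP2, a lipid-anchored NKG2D ligand, was the member that changed. After the NBD peptide it rose 4.98-fold in KOPT-K, and 1 other probe set of the gene moved the same way there. In the other 4 lines no ligand gene passed the test. MICA, MICB and PVR were above the filter on all 20 arrays by their main probe sets and passed in no line.

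Probe set 238542_at, the brighter of the 2 named for ULBP2, read 9.06 and 8.80 (log2 intensity) on the KOPT-K NBD arrays, against 6.42 and 6.80 on the KOPT-K control arrays. Both NBD arrays lay above both control arrays with no overlap, as the 2 peptides did for 42.5% of all genes in KOPT-K. The mean was 8.93 ± 0.19 with the NBD peptide and 6.61 ± 0.27 with the control peptide (SD, n = 2 each). The log2 difference was 2.32 with a 95% interval of 1.71 to 2.92 (limma adjusted p = 0.000619 in the fit across all 13787 genes kept). It was the second largest rise of a gene in that line, after JUN, which encodes an AP-1 protein, at 3.35 (JUN was named after its value was seen). Of the 4 ligand genes tested, 1 was called in KOPT-K, where 1.28% of all genes were called and 0.892% were called higher. Fitted with T-ALL1 alone, without the 3 lines of the other set of columns, the same KOPT-K difference had an adjusted p of 0.057. That smaller fit takes its spread from 8 arrays, among them the scattered T-ALL1 arrays described next. Leaving out any 1 of the 20 arrays kept the call, with differences of 2.13 to 2.505.

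In T-ALL1, 238542_at read 4.55 and 3.91 on the NBD arrays and 4.56 and 3.53 on the control arrays. All were below the filter, a log2 value of 4.998, and the groups overlapped, with an SD of 0.45 for the NBD arrays and of 0.72 for the control arrays. In HPB-ALL the NBD arrays read 4.18 and 4.53 and the control arrays 4.23 and 4.68, again below the filter and overlapping. In these 2 lines the differences were 0.18 and -0.10 (limma adjusted p = 0.750 and 0.963). The 95% intervals, -0.42 to 0.79 in T-ALL1 and -0.71 to 0.50 in HPB-ALL, end below the KOPT-K interval. A fall or a smaller rise was not detectable at this signal.

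CEM and DND41 had clear ULBP2 signal under both peptides. CEM read 8.57 and 8.70 on the NBD arrays and 8.16 and 8.34 on the control arrays, a difference of 0.39 (limma adjusted p = 0.603). DND41 read 7.90 and 7.82 on the NBD arrays and 8.11 and 8.17 on the control arrays, a difference of -0.28 (adjusted p = 0.736). The NBD arrays were all above the control arrays in CEM and all below them in DND41. Such separation held for 49.2% of all genes in CEM and for 49.4% in DND41. The 95% intervals of -0.22 to 0.99 in CEM and -0.89 to 0.33 in DND41 end well below the KOPT-K interval. No ligand gene was called in T-ALL1, CEM, DND41 or HPB-ALL, where 3.45%, 1.13%, 2.47% and 0.783% of all genes were called.

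**Figure D2:**
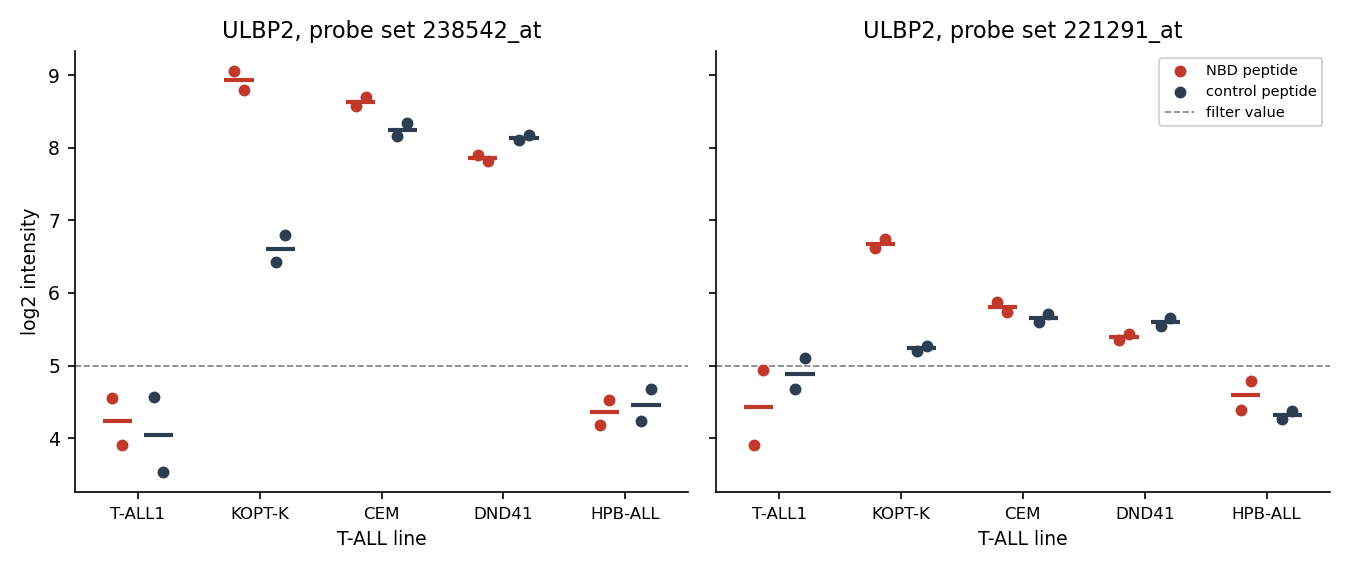
ULBP2 on every array. The vertical axis is log2 intensity, points are single arrays, short bars are group means and the dashed line is the filter value; the KOPT-K arrays with the NBD peptide stand above their controls for both probe sets, and T-ALL1 and HPB-ALL lie below or near the line.

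The second ULBP2 probe set, 221291_at, gave the same picture on a smaller scale. It read 6.62 and 6.74 on the KOPT-K NBD arrays and 5.20 and 5.27 on the KOPT-K control arrays, which did not overlap. The difference was 1.44, or 2.72-fold (limma adjusted p = 0.0125 in the fit across 26260 probe sets, of which 0.83% were called in KOPT-K). It was no longer called without KOPT-K control array 1, NBD array 1 or NBD array 2, with adjusted p up to 0.114 and differences of 1.385 to 1.5002. In CEM and DND41 its differences were 0.15 and -0.21, of the same signs as those of the first probe set. In T-ALL1 and HPB-ALL they were -0.47 and 0.27, of opposite signs to the first, at intensities near or below the filter. None of these 4 passed (adjusted p = 0.261 to 0.871), where 5.68%, 0.632%, 1.2% and 0.373% of probe sets were called in T-ALL1, CEM, DND41 and HPB-ALL. RAET1L, which encodes the close relative ULBP6, was not analysed here, and probe sets named for ULBP2 may also read its transcript.

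The ULBP2 effect differed between lines (moderated F-test of limma, adjusted p = 0.0179, where 1.83% of all genes were called). The KOPT-K difference exceeded that of T-ALL1 by 2.14, of CEM by 1.93, of DND41 by 2.60 and of HPB-ALL by 2.42 on the log2 scale, each with an SE of 0.40. The F-test did not pass without KOPT-K control array 1 (adjusted p = 0.0746) or KOPT-K NBD array 1 (0.0755). Within the sets of columns it did not pass either, at 0.310 between T-ALL1 and KOPT-K alone and at 0.243 among CEM, DND41 and HPB-ALL. For 221291_at the adjusted p of the F-test was 0.058. For MICA, MICB and PVR it was 0.339, 0.924 and 0.456.

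Averaged over the 5 lines with equal weight, ULBP2 was 0.50 ± 0.13 (SE) higher with the NBD peptide, 1.41-fold (limma adjusted p = 0.026, 95% interval 0.23 to 0.77). Of the 4 ligand genes, 1 was called on average, where 8.38% of all genes were called, 2.24% higher and 6.14% lower. The average rested on KOPT-K: the effect was above 0 in 3 lines and below 0 in 2, and without the KOPT-K line it was 0.05 (adjusted p = 0.9). With the 5 lines as replicates the adjusted p was 0.618. The call also ended without the CEM line (adjusted p = 0.0707) and without any 1 of 7 arrays, which were T-ALL1 NBD 1, CEM NBD 2, KOPT-K control 1 and NBD 1, DND41 control 1, HPB-ALL control 1 and NBD 2 (adjusted p up to 0.0592). In an unfiltered fit across all 54675 probe sets, 238542_at was not called on average (limma adjusted p = 0.0512). The second probe set, 221291_at, averaged 0.24 and was not called either (adjusted p = 0.233 in the fit across kept probe sets). The median effect of the 4 genes was 0.16 in KOPT-K and lay between -0.03 and 0.06 in the other lines, against -0.02 to -0.01 over all genes.

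**Figure D3:**
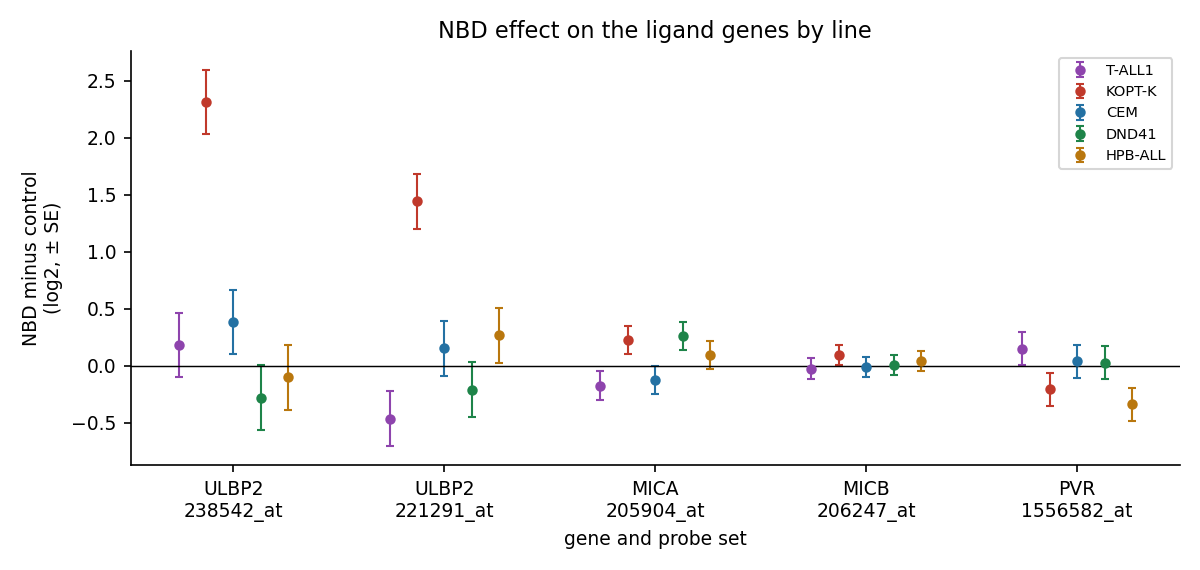
NBD effect on the tested ligand genes. The vertical axis is NBD minus control on the log2 scale with its SE, and colours mark the 5 lines; ULBP2 in KOPT-K, at 2.32 and 1.44 for its 2 probe sets, stands apart from the other values of the 5 probe sets drawn (2 of ULBP2 and the main one of MICA, MICB and PVR), which lie between -0.47 and 0.39.

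ULBP1 and ULBP3, the lipid-anchored relatives of ULBP2, gave little signal. The only ULBP1 probe set, 221323_at, read 3.60 to 4.37 on the 10 NBD arrays and 3.65 to 4.42 on the 10 control arrays. In KOPT-K it read 3.95 and 4.26 with the NBD peptide and 3.96 and 4.07 with the control peptide, which overlapped. The only ULBP3 probe set, 231748_at, read 3.54 to 4.25 on the NBD arrays and 3.61 to 4.34 on the control arrays. Neither entered a test. RAET1E, another NKG2D ligand gene of the same cluster, was also below the filter on all 20 arrays, at 3.70 to 4.86.

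MICA and MICB, the transmembrane NKG2D ligands, passed the test in no line. MICB (206247_at) read 10.43 and 10.45 on the KOPT-K NBD arrays and 10.38 and 10.31 on the control arrays. Over the 5 lines its NBD arrays ranged from 9.58 to 10.47 and its control arrays from 9.63 to 10.45. The peptides overlapped in every line but KOPT-K, where 42.5% of all genes did not overlap. Its average effect was 0.02 with a 95% interval of -0.06 to 0.10 (limma adjusted p = 0.817).

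MICA (205904_at) read 6.82 and 6.99 on the KOPT-K NBD arrays and 6.52 and 6.83 on the control arrays, which overlapped. In DND41 it read 7.14 and 7.32 with the NBD peptide and 6.91 and 7.03 with the control peptide. The difference was 0.26 (limma adjusted p = 0.331) with no overlap, as for 49.4% of all genes there. In CEM it read 7.18 and 7.08 with the NBD peptide and 7.30 and 7.21 with the control peptide, a difference of -0.13 (adjusted p = 0.699). In HPB-ALL it differed by 0.09 (adjusted p = 0.896). The peptides did not overlap in CEM and HPB-ALL either, as for 49.2% and 49.8% of all genes. The signs thus differed between lines, with no line past the test. Its average effect was 0.06 with a 95% interval of -0.06 to 0.17 (adjusted p = 0.612). The antisense gene MICA-AS1 (230937_at) overlaps this locus and had an average effect of -0.08 (adjusted p = 0.480).

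Probe set 205905_s_at is annotated to both MICA and MICB, so it was left out of the gene-level fit. In T-ALL1 it read 7.21 and 7.11 on the NBD arrays and 6.65 and 6.87 on the control arrays, with no overlap, as for 42.8% of all genes in T-ALL1. In an unfiltered fit across all 54675 probe sets its average effect was 0.18 ± 0.04 (SE; limma adjusted p = 0.0409, where 2.05% of probe sets were called), and its T-ALL1 effect was 0.40 (adjusted p = 0.0292, where 3.79% were called). The effect was positive in 4 lines and negative in CEM. The average call ended without any 1 of 18 of the 20 arrays, with values of 0.15 to 0.20 and adjusted p up to 0.103. The T-ALL1 call ended without 3 of the 4 T-ALL1 arrays, and the T-ALL1 peptides also differed in the actin 3′ to 5′ difference given above. In the same line the MICA and MICB probe sets differed by -0.17 and -0.03, with overlapping arrays and no call (adjusted p = 0.425 and 0.895 in the gene-level fit). With the actin covariate both of these differences were above 0.

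PVR, the DNAM-1 ligand, had 7 probe sets, of which 4 passed the filter. The brightest, 1556582_at, read 5.84 and 5.93 on the HPB-ALL NBD arrays and 6.22 and 6.23 on the HPB-ALL control arrays. The groups did not overlap, and the difference of -0.34 was the largest for this probe set, without passing (limma adjusted p = 0.401, with such separation at 49.8% of all genes in HPB-ALL). In KOPT-K it read 6.08 and 5.91 with the NBD peptide and 6.30 and 6.10 with the control peptide, a difference of -0.21 (adjusted p = 0.646). Its average effect was -0.07 with a 95% interval of -0.20 to 0.07 (adjusted p = 0.608). The other 3 that passed the filter, 239918_at, 214444_s_at and 32699_s_at, averaged -0.02, -0.05 and 0.02 (adjusted p = 0.902, 0.755 and 0.903 in the fit across probe sets, of which 6.13% were called on average). The largest PVR difference was that of 214444_s_at in KOPT-K, at -0.48, with both NBD arrays below both control arrays (mean 4.98 with the NBD peptide and 5.46 with the control peptide; adjusted p = 0.226). In DND41, 239918_at differed by -0.34 with no overlap (adjusted p = 0.267). Of all genes, 42.5% in KOPT-K and 49.4% in DND41 had no overlap. In HPB-ALL, 239918_at differed by -0.13 and 214444_s_at by 0.14.

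The dim PVR probe set 216283_s_at differed from the rest. It read 3.72 to 4.09 on the NBD arrays and 3.49 to 3.90 on the control arrays, below the filter throughout, and in each of the 5 lines both NBD arrays lay above both control arrays, as they did for 4 of the 22325 probe sets that did not pass the filter (0.0179%). The 5 differences ran from 0.17 to 0.21. In the unfiltered fit its average effect was 0.19 ± 0.04 (SE; limma adjusted p = 0.0166). The call ended without HPB-ALL NBD array 1 (adjusted p = 0.0509) and without any 1 line other than T-ALL1 (adjusted p up to 0.0922). The other 6 PVR probe sets did not pass in that fit.

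Ligand levels also differed between lines. The T-ALL1 control arrays had the large actin 3′ to 5′ differences given above, whose part in these levels was not tested. Under the control peptide, ULBP2 (238542_at) averaged 6.61 in KOPT-K and 4.05 in T-ALL1, with no overlap. T-ALL1 was below the filter, and with the filter value as its level KOPT-K was at least 3.06-fold higher by this probe set. In the other set of columns it averaged 8.25 in CEM and 8.14 in DND41, which did not differ beyond their spread, and 4.45, below the filter, in HPB-ALL. DND41 was at least 8.84-fold higher than HPB-ALL on the same terms. The second ULBP2 probe set, 221291_at, gave the same order with smaller gaps. Its control means were 5.24 in KOPT-K and 4.89 in T-ALL1 (1.27-fold), and 5.60 in DND41 and 4.33 in HPB-ALL (2.42-fold). Among these lines, then, HPB-ALL and T-ALL1 were the low ones. MICB did not follow that order: its control means were 10.35 in KOPT-K and 10.17 in T-ALL1, and 10.41 in HPB-ALL, 10.02 in CEM and 9.65 in DND41, each apart from the next. MICA had control means of 6.68 in KOPT-K and 6.498 in T-ALL1, which overlapped, and of 7.26 in CEM, 7.11 in HPB-ALL and 6.97 in DND41, which did not. PVR (1556582_at) averaged 6.20 in KOPT-K and 5.97 in T-ALL1, which overlapped. It averaged 6.23 in HPB-ALL, above 5.76 in CEM, and CEM overlapped with DND41 at 5.59. The other PVR probe sets did not all give this order. By 239918_at DND41 averaged 5.90, HPB-ALL 5.80 and CEM 5.63, each overlapping the next. By 214444_s_at HPB-ALL was again the highest of its set, at 5.38. By 32699_s_at T-ALL1 (5.33) and KOPT-K (5.26) overlapped.

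**Figure D4:**
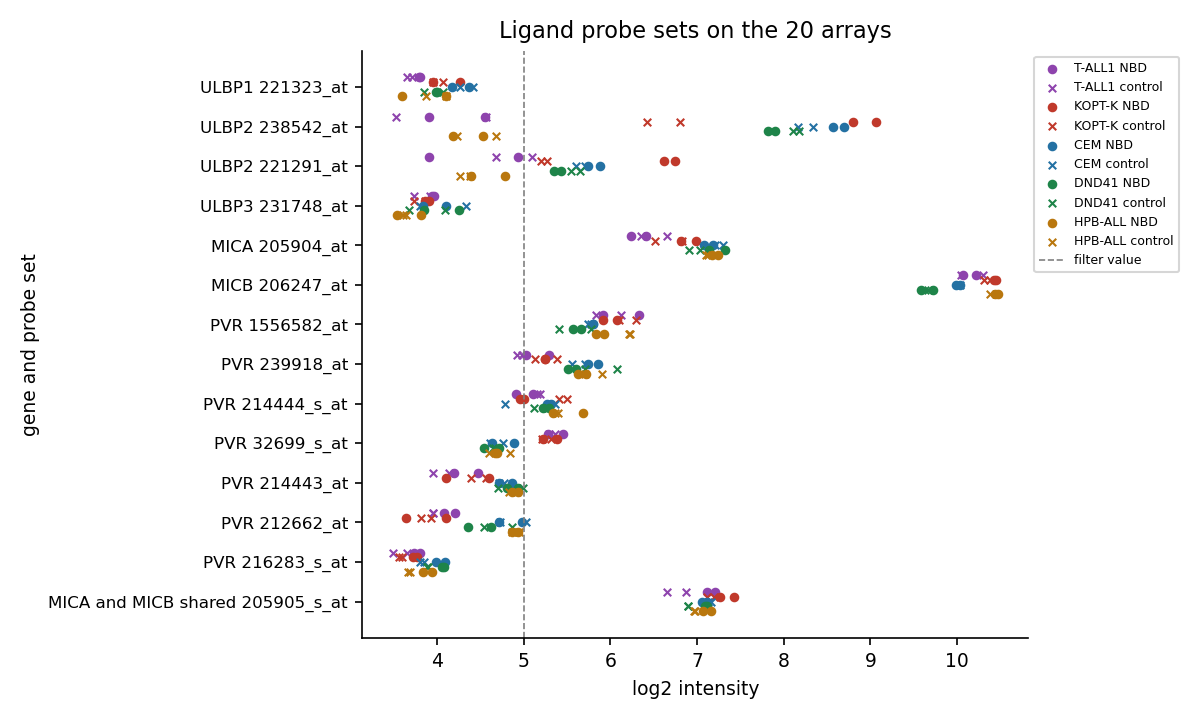
Log2 intensity of the ligand probe sets on the 20 arrays. Each row is 1 probe set, colours mark lines and marker shapes mark the peptide; ULBP2 spans from 3.53 to 9.06, while MICB stays between 9.58 and 10.47 and ULBP1 and ULBP3 stay left of the dashed filter line.

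The genes most like ULBP2 in their pattern were SGK1, a kinase of the insulin and glucocorticoid response, and SLC2A3, a glucose transporter. Likeness is Pearson's r over the 20 arrays after each line's mean was removed, which was 0.899 for SGK1 and 0.897 for SLC2A3. These points share arrays and normalization, and the KOPT-K arrays carry most of the spread. Both genes were chosen for this pattern, so their KOPT-K values are a description with no test. SGK1 read 8.79 and 8.57 on the KOPT-K NBD arrays and 7.19 and 7.55 on the control arrays, a difference of 1.31. SLC2A3 read 8.69 and 8.61 with the NBD peptide and 7.18 and 6.996 with the control peptide, a difference of 1.56. In DND41, where ULBP2 differed by -0.28, SGK1 differed by 0.29 and SLC2A3 by -0.07. The nearest to MICA were CEP72 (r = 0.903) and MLLT10 (0.889), to MICB HEBP1 (0.862) and FOXN2 (0.841), and to PVR ATN1 (0.845) and SYT15 (0.843).

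**Figure D5:**
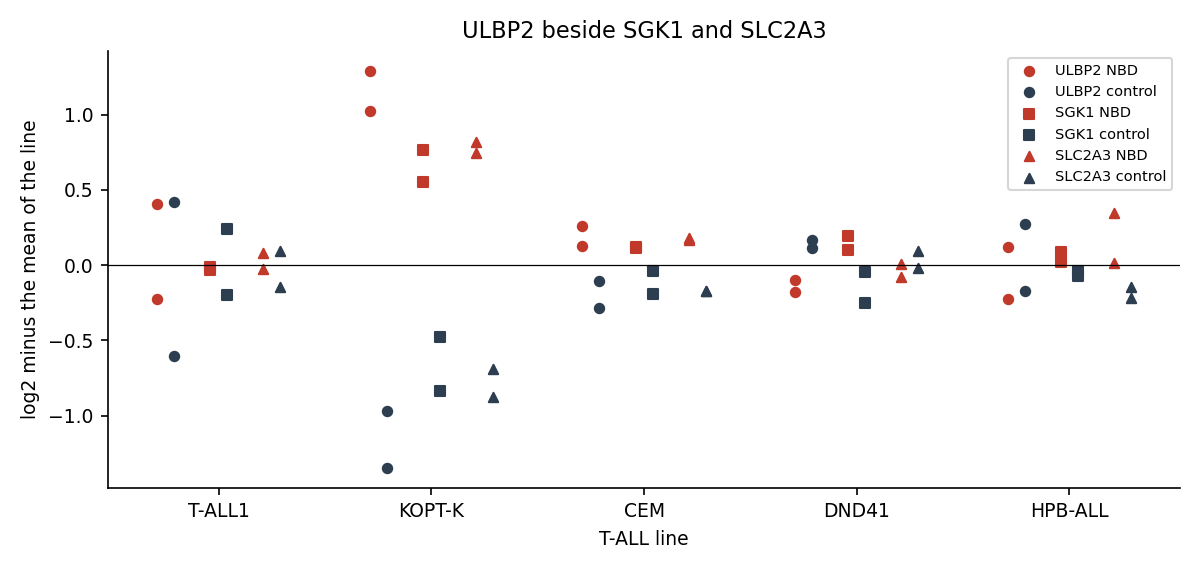
ULBP2, SGK1 and SLC2A3 on every array. The vertical axis is the log2 value minus the mean of its line, marker shapes are genes and colours are peptides; in KOPT-K all 3 genes lie above the line mean on both NBD arrays and below it on both control arrays.

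Of 5 nectins and related adhesion molecules, which include the second DNAM-1 ligand NECTIN2, none passed on average, where 8.38% of all genes did, and NECTIN2 itself averaged 0.01 (limma adjusted p = 0.968). CADM1, the ligand of CRTAM, and NECTIN1 averaged 0.11 and 0.03 (adjusted p = 0.520 and 0.807). Of 8 receptors and adaptors with a probe set, only HCST (DAP10, the adaptor of NKG2D), CD96 and PVRIG were above the filter. CD226, TIGIT, TYROBP, KLRC4 and CRTAM did not pass it. Of the 3 kept, 1 was called on average. PVRIG, an inhibitory receptor of NECTIN2, fell by 0.35 on the log2 scale (SE 0.09, adjusted p = 0.0268). That call ended without any 1 of 7 arrays (adjusted p up to 0.0651) or without the KOPT-K, CEM or HPB-ALL line (up to 0.150).

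Among 14 other ligands and adhesion molecules that NK cells read, 2 (ICAM2 and CD48) fell on average, where 6.14% of all genes were called lower, and 12 did not pass on average. ICAM2, a ligand of the integrin LFA-1, fell by 0.23 on average (SE 0.03, limma adjusted p = 0.000856) and was below control on average in all 5 lines. CD48, the ligand of 2B4, fell by 0.22 (SE 0.03, adjusted p = 0.00156), with differences of -0.48 in CEM and 0.08 in KOPT-K, and was not called without the CEM line (adjusted p = 0.056). The median of the 14 was -0.05, against -0.01 for all genes. In single lines, CD48 and ICAM2 were called lower in T-ALL1, CD48 and CLEC2D (LLT1, the ligand of CD161) in CEM, and CD70, the ligand of CD27, in DND41. In these lines 3.45%, 1.13% and 2.47% of all genes were called in either direction. None of the 14 was called in KOPT-K or HPB-ALL. The CD48 calls ended without any 1 of 11 arrays in T-ALL1 and of 3 in CEM. That of ICAM2 ended without either T-ALL1 NBD array. The T-ALL1 peptides also differed in the actin 3′ to 5′ difference given above. CLEC2D differed by -0.56 in CEM and CD70 by -0.33 in DND41 (adjusted p = 0.0275 and 0.0173), and each call ended without any 1 of 3 arrays of its line. The CLEC2D mean in CEM, at 4.55, was below the filter. HLA-E, the ligand of the inhibitory receptor NKG2A, averaged -0.01 (adjusted p = 0.902). Of the 13 T lineage markers, 6 were called lower on average, against 6.14% of all genes, and 7 did not pass, and without the HPB-ALL line 3 were called. The largest falls were CD3D at -0.45, CD1B at -0.31, CD7 at -0.29 and CD1E at -0.27 (adjusted p = 1.5e-06, 0.00949, 0.000772 and 0.0142). The summed intensity of the 13 markers in KOPT-K was 24014 to 25123 with the NBD peptide and 30399 to 31409 with the control peptide. The part of this shift in the other values was not tested.

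None of 9 genes of shedding and surface release passed on average, against 8.38% of all genes, the largest being ADAM9 at 0.15 and TIMP3, an inhibitor of ADAM proteases, at -0.12 (limma adjusted p = 0.192 and 0.113). ADAM10 and ADAM17, the proteases that release ULBP2 and MICA, averaged -0.09 and 0.01 (adjusted p = 0.0795 and 0.950). The only call of the list in a single line was TIMP1, a metalloprotease inhibitor, at -0.55 in DND41 (adjusted p = 0.0230), which ended without DND41 control array 1, control array 2 or NBD array 2.

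Of 15 known regulators of ligand transcription, 2 passed on average, where 8.38% of all genes did. ATF4, a stress-induced factor that drives ULBP1 in human cells, rose by 0.14 (SE 0.03, limma adjusted p = 0.0115) and in KOPT-K by 0.38 (adjusted p = 0.0138). Its average call ended without the KOPT-K line (adjusted p = 0.115), and its KOPT-K call without KOPT-K control array 1, NBD array 1 or NBD array 2. MYC fell by 0.50 (SE 0.09, adjusted p = 0.0053), a call that ended without the DND41 line (adjusted p = 0.0846). ATM and ATR, kinases of the DNA damage response that raise NKG2D ligands, averaged -0.16 and 0.01 (adjusted p = 0.0770 and 0.953). Beside ATF4 in KOPT-K, the calls of the list in single lines were CHEK1 in T-ALL1 and MYC in DND41. They differed there by 0.53 and -1.04 (adjusted p = 0.0361 and 0.0209), where 3.45% and 2.47% of all genes were called. RELA and NFKB1, subunits of NF-kB, averaged -0.06 and 0.06 (adjusted p = 0.606 and 0.618).

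Of 12 targets of ATF4 and of the DNA damage response, 8 were called higher on average with the NBD peptide and 0 lower, where 2.24% of all genes were called higher and 6.14% lower, and 4 did not pass (TRIB3, ASNS, CHAC1 and MDM2). They had a median of 0.21 against -0.01 for all genes. The list was drawn up with these results known and is no independent evidence. The 4 largest were ATF3, a stress-induced transcription factor, at 0.85, PPP1R15A (GADD34), which restores translation after stress, at 0.41, GADD45A, a growth arrest gene, at 0.26, and CDKN1A, the cell cycle inhibitor p21, at 0.24 (limma adjusted p = 1.98e-06, 0.000892, 0.00167 and 0.0287). The count of 8 became 5 to 8 without each array in turn, with 5 after leaving out any 1 of 6 arrays (CEM control 1 and NBD 1, DND41 control 2 and NBD 1, HPB-ALL control 1 and NBD 2), and was 4 without the KOPT-K or the HPB-ALL line. Without KOPT-K the average call of GADD45A ended (adjusted p = 0.835). The average call of CDKN1A ended without any 1 of 11 arrays or without the KOPT-K, CEM or HPB-ALL line. In KOPT-K, where ULBP2 rose, 5 of the 12 were called higher, against 0.892% of all genes, with a median of 0.63. ATF3 rose there by 1.95, GADD45A by 1.19 and PPP1R15A by 0.92, calls that held without any 1 array. SESN2 and CDKN1A, at 0.65 and 0.64, lost their KOPT-K calls without any 1 of 3 and of 12 arrays, and the count was 3 without KOPT-K control array 1, NBD array 1 or NBD array 2. In DND41, where ULBP2 differed by -0.28 without passing, GADD45A fell by 0.49 and TRIB3, a pseudokinase induced by ATF4, by 0.87 (adjusted p = 0.014 and 0.000331). These 2 of the 12 were called lower, against 1.74% of all genes, and none higher. ATF3 and ASNS differed there by 0.48 and 0.69 without passing (adjusted p = 0.0893 and 0.162). The median there was -0.005. In CEM 2 were called higher, GADD45A at 0.58 and CDKN1A at 0.66 (adjusted p = 0.00589 and 0.0421), and none lower. There 1.13% of all genes were called in either direction. In HPB-ALL none was called, against 0.783% of all genes. In T-ALL1, where the brighter ULBP2 probe set was below the filter, 2 were called higher and none lower, against 3.45% of all genes in either direction. They were ATF3 at 0.87 and PMAIP1 at 0.60 (adjusted p = 0.00552 and 0.00132). The T-ALL1 peptides also differed in the actin 3′ to 5′ difference given above. The DND41 call of GADD45A ended without DND41 control array 1, control array 2 or NBD array 2 (adjusted p up to 0.145). Its CEM call ended without CEM NBD array 1 (0.0842). A link of these values to those of ULBP2 was not tested.

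None of the 5 heat shock targets measured passed on average, against 8.38% of all genes, with HSPB1 at -0.14 and HSPH1 at -0.07 (limma adjusted p = 0.0707 and 0.415). A link of these values to the heat shock pairs of MICA and MICB was not tested. The median of the 5 was -0.05. In DND41, 2 of the 5 were called lower, against 1.74% of all genes. They were HSPH1 at -0.43 and HSP90AA1 at -0.25 (adjusted p = 0.0323 and 0.0415), which lost the call without any 1 of 4 and of 16 arrays.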

How the data were processed

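The deposited values are linear intensities of 54675 probe sets, which the authors made with RMA (robust multi-array average) per the submitters' processing notes; no version is given. They were used here as log2 without a pseudocount. Of the probe sets, 41097 had 1 gene symbol in the platform table, 1801 had several and 11777 had none, and those with several or none entered only the unfiltered fit. The probe set with the highest mean stood for its gene. Genes reaching an intensity of 31.96, the median of all values, on 2 or more arrays were kept (13787 of 19775). Median intensities ran from 30.33 to 34.09 per array, and precision is limited by how many arrays there are.

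The tests used limma 3.58.1 in R 4.3.3 (lmFit, eBayes) on all 20 arrays, with 1 mean per group, a spread shared over the 10 groups (10 residual and 3.42 prior degrees of freedom) and Benjamini-Hochberg adjustment over all genes at 0.05. Differences are NBD minus control. A second fit took 26260 kept probe sets, and another all 54675. The procedure was tested on simulated data. Samples were grouped by line and agent as labelled. The members, gene lists and tests were chosen with earlier results of these data known. The genes named are the 6 ligands with all their probe sets, up to 4 called genes of each list by size of the average change (or the 2 largest where none passed), and the 2 genes most like each ligand. Others are named as members of their list. Alternatives were other normalizations, filters, gene representatives, an actin covariate, a replicate block, lines as replicates and fits without each array or line. Some genes of the lists, RAET1G, RAET1L and KLRK1 among them, were not analysed here. Same-numbered arrays did not deviate together (r = -0.28 to 0.14 per line), so the main fit took them as unpaired. With 2 arrays per group this check cannot exclude a pairing. Promoter sequences and gene positions are RefSeq's (GRCh38.p14).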

Additional observations from a re-analysis of the deposited data

Results flagged for a closer look

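The effect of the NBD peptide on ULBP2 differed between the 5 lines by a moderated F-test of limma across all genes (adjusted p = 0.0179), which is what brought it here. The log2 difference was 2.32 in KOPT-K, 0.39 in CEM, 0.18 in T-ALL1, -0.10 in HPB-ALL and -0.28 in DND41. Without KOPT-K control array 1 the adjusted p was 0.0746, and without KOPT-K NBD array 1 it was 0.0755. Fitted apart, it was 0.310 between T-ALL1 and KOPT-K and 0.243 among CEM, DND41 and HPB-ALL. No cause was tested.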

How the results depend on the processing

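With 2 arrays per group, the limits lie in the spread of single pairs and in signals near the filter, and the cause of a change between settings was not tested unless named. ULBP2 in KOPT-K kept its call under 29 of 30 settings, the exception being T-ALL1 and KOPT-K fitted apart (chosen after seeing the data), which called 0 ligand genes in KOPT-K, 0 on average, and 16 genes higher and 8 lower. Ligand genes called on average numbered 1 in the full fit, and 0 with lines as replicates, without the KOPT-K line, without the CEM line and with CEM, DND41 and HPB-ALL fitted apart, and 0 to 1 without each array. With lines as replicates limma called 0 genes in either direction after adjustment (lowest adjusted p = 0.126), while 1639 had an unadjusted p under 0.05 and ULBP2 had 0.168. Genes called higher on average numbered 309 in the full fit, 127 with the replicate block, 147 without the KOPT-K line, 192 without the CEM line, 170 without the HPB-ALL line, and 193 to 702 without each array. Genes called lower numbered 847, against 324 with the replicate block, 497 with the actin covariate, 465 without the CEM line, 414 without the HPB-ALL line, and 561 to 1612 without each array, the highest without T-ALL1 control 2 in both directions. Genes called in KOPT-K numbered 176, and 67 to 293 without each array. With the replicate block 51 genes were called in KOPT-K, and 33 with T-ALL1 and KOPT-K fitted apart. In the block fit the ULBP2 difference in KOPT-K had a limma adjusted p of 0.00057, and no ligand call changed. Sign changes arose only in values that passed under no setting. With the mean of all probe sets, PVR averaged 0.0165 and was -0.0432 in DND41, and ULBP2 was 0.0812 in HPB-ALL and -0.14 in T-ALL1. With the actin covariate, T-ALL1 gave 0.20 for MICA, 0.26 for MICB and -0.20 for PVR, and DND41 gave -0.0087 for PVR. PVR averaged 0.0012 without the HPB-ALL line, and MICB in DND41 was -0.0092 with median centring. Without each array, MICB ranged from -0.0050 to 0.0471 on average, -0.0283 to 0.0087 in CEM, -0.0610 to 0.0718 in DND41 and -0.16 to 0.10 in T-ALL1. PVR ranged from -0.16 to 0.21 in DND41 and from -0.0572 to 0.35 in T-ALL1, and ULBP2 from -0.33 to 0.12 in HPB-ALL and from -0.33 to 0.69 in T-ALL1.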
